A study of Mus musculus with 6 samples.

Results

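The 40 genes described here encode the enzymes and transporters that carry glucose to lactate, into mitochondria as pyruvate, or through the pentose phosphate path. They were taken by symbol from a listed set of enzymes and are 40 of the 21033 genes in the count table. Glycolysis splits glucose into pyruvate in the cytosol with a small yield of ATP. Lactate dehydrogenase turns pyruvate into lactate, which monocarboxylate transporters export, while the mitochondrial carrier and pyruvate dehydrogenase feed it to the citrate cycle. The pentose phosphate path leaves glycolysis after its first step and makes NADPH and ribose. Synovial fibroblasts, the lining and stromal cells of the joint, are known for raised glycolysis in inflammatory arthritis.

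The cells were synovial fibroblasts cultured from the ankle joint of the hTNFtg mouse. Every library, vehicle or compound, thus carries the human TNF transgene. After 3 passages they received compound 33 at 10 µM or the vehicle DMSO for 48 h, with 3 libraries for each. Messenger RNA was read from its 3′ end. No label says whether replicates are separate animals or cultures. A p-value here sets the group difference against the scatter of these libraries only, which may be technical.

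Sequencing depth was 1594052 to 2897207 reads per library. Libraries of the same treatment differed beyond counting noise (chi-square per degree of freedom 4.62 to 19.1). All 10 listed fibroblast markers were detected well enough to be tested, with a summed level of 14278 to 15511 CPM (reads scaled to library size) under DMSO and 12148 to 14224 CPM under compound 33. These ranges were separated by a narrow gap, and their part in the values below was not tested. Single markers lay in both directions. Mean CPM was lower with compound 33 for Col1a1, Col1a2, Col3a1, Pdgfra, Cdh11, Thy1 and Pdpn. It was higher for Pdgfrb, Vim and Prg4. The smallest edgeR adjusted p of the 10 was 0.605 (Thy1). Markers of red cell precursors and lymphocytes had no reads. The 7 markers of skeletal muscle, a tissue rich in glycolytic enzymes, summed to 25.4 to 40.3 and 20.1 to 36.1 CPM, mostly Acta1. Over all libraries Des had 20 reads, Myh1 and Pax7 2 each, Ckm and Myod1 1 each, and Myh4 0. Those of Des, too few to test, were 1, 1 and 1 under DMSO, against 7, 6 and 4 after compound 33. Macrophage markers summed to 42.0 to 116 and 38.6 to 80.3 CPM, mostly Lyz2. Chondrocyte markers summed to 59.9 to 148 and 99.6 to 119 CPM, mostly Sox9. Those of Schwann cells and neurons summed to 39.7 to 71.1 and 33.6 to 55.6 CPM, mostly Tubb3. Markers of dividing cells summed to 380.2 to 536 and 437 to 542 CPM. The ranges overlapped between treatments for each of these lists other than the fibroblast one.

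No member passed the test between compound 33 and DMSO. Of the 40 genes 39 had enough reads to be tested, and 0 had an adjusted p under 0.05 in edgeR's quasi-likelihood test, in which 0.0296% of all 10124 genes tested passed. DESeq2 (0.179% of genes passing) and limma-voom (0.0198%) also passed 0 members. In the authors' deposited table, where 0.179% of genes pass, the smallest adjusted p of a member is 0.315, for Pgam1. At an unadjusted p under 0.05 edgeR had 4 members lower with compound 33, or 10.3% of those tested against 3.23% of all genes, namely Pgam1, Pdk1, Ldha and Eno1. On the same criterion 2 members were higher, Pgd and Taldo1, or 5.13% against 3.64%.

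Most estimates were negative along glycolysis and positive in the pentose phosphate path. Estimates are edgeR's log2 fold changes, compound 33 over DMSO. Between glucose uptake and lactate, with the regulators Pfkfb3, Pfkfb4 and Tigar counted in, 17 of 23 tested members were negative (median -0.30). All 6 pentose phosphate members were positive (median 0.22). Among all genes tested 51.1% were negative and 48.9% positive, and their median was -0.01. A difference between the branches was not tested. Over the 39 members the median was -0.15. Single estimates were imprecise: 33 of 39 intervals (95%) included 0, and they reached a median of 0.55 to each side.

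**Figure D1:**
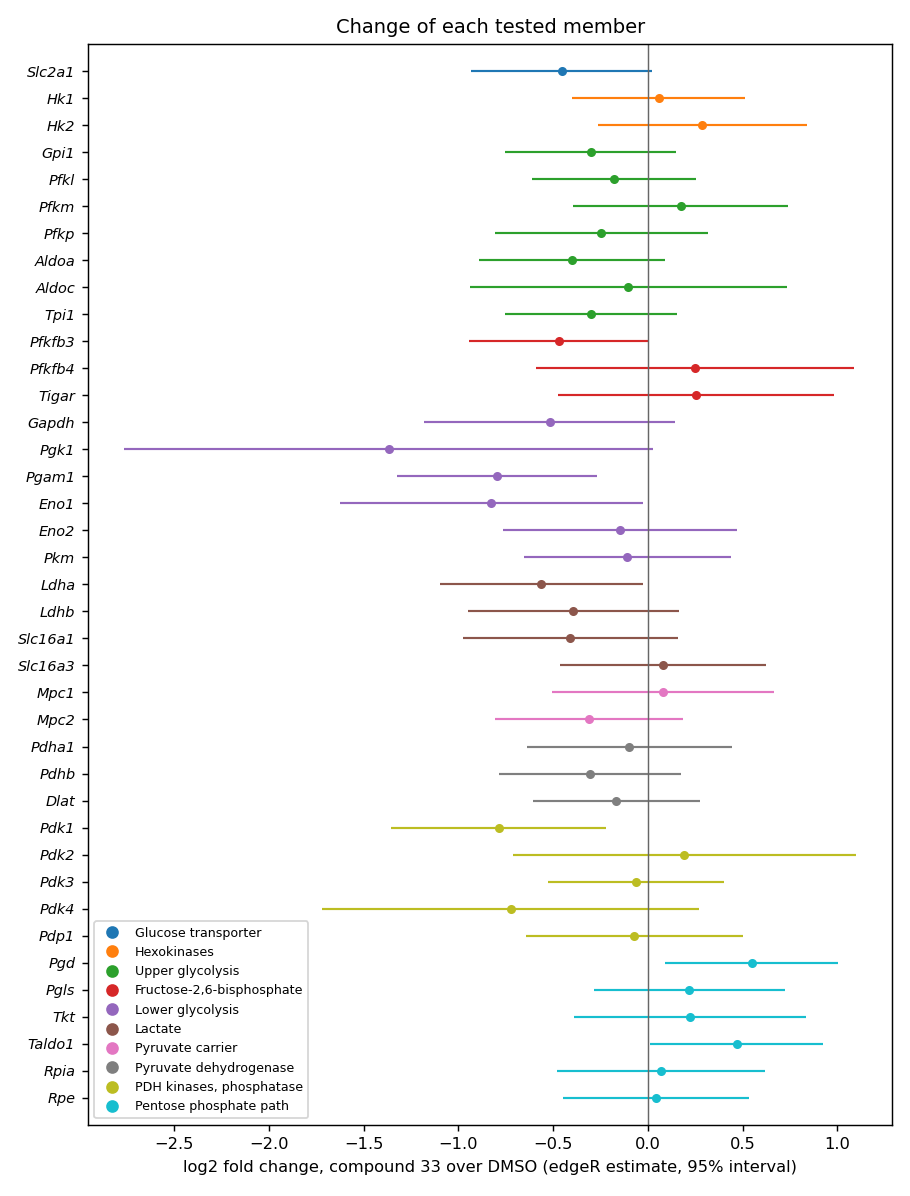
The horizontal axis gives the log2 fold change of each tested member (compound 33 over DMSO; points) with its 95% interval (bars), coloured by role. All 6 lower glycolysis genes lie left of 0 and all 6 pentose phosphate genes right of it, while 33 of 39 intervals cross 0.

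The core element of hypoxia-inducible factor, ACGTG, can be looked up in the promoters of the members. The windows are RefSeq's on GRCm38.p6, the assembly of mm10, from 250 bases before to 50 after each annotated start. Of 40 members 38 matched, with 54 windows. A gene can have several windows, so a site in overlapping windows counts more than once, as in Aldoa. Windows per gene were not matched between the sets compared below. Searched on both strands, ACGTG was in 37.0% of the member windows, 26.3% of the windows of all tested genes and 19.6% of all windows. GCGTG, the variant that is also the core of the aryl hydrocarbon receptor's element, was in 57.4%, 51.9% and 32.4%. TGACNNNGC, the core of the antioxidant element, was in 11.1%, 14.4% and 12.4%. ACGTG also lies inside the E-box CACGTG, so a match is a description of letters only. The 17 members that held ACGTG had estimates of both signs, 12 negative and 5 positive (Hk1, Hk2, Pfkm, Pdk2 and Slc16a3), and of all 39 tested members 25 were negative and 14 positive. TGACNNNGC was in 6 members, 3 negative (Aldoa, Pdhb and Slc16a1) and 3 positive (Hk1, Mpc1 and Pgd). The stretches below, from 4 members with a negative and 1 with a positive estimate (Hk2), are on the plus strand, with ACGTG in capitals, at chr4:119108699-119108723, chrX:106186940-106186964, chr19:41911747-41911771, chr7:46845747-46845771 and chr6:82774492-82774516 in turn.
Slc2a1: cccgccccggACGTGctccccaggc
Pgk1: gtcgtgcaggACGTGacaaatggaa
Pgam1: ctccttgcttACGTGcgctccgtga
Ldha: cccagcctacACGTGggttcccgca
Hk2: ccggacagtgACGTGgatgtgctca

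Glucose uptake was represented by Slc2a1, the transporter GLUT1. It gave 173, 163 and 129.9 CPM in the DMSO libraries, against 97.2, 138 and 103 CPM after compound 33. Compound 33 replicate 2 lay within the DMSO range, and the estimate was -0.46 (SE 0.22, edgeR adjusted p = 0.733). Slc2a3, or GLUT3, was too scarce to test, with 6, 1 and 3 reads under DMSO and 6, 4 and 5 under compound 33. Hexokinases trap glucose in the cell by phosphorylation. Hk1 gave 121, 134 and 138 CPM, against 144, 155 and 109 CPM after compound 33, overlapping groups with an estimate of 0.06. Hk2, the inducible form, had an estimate of 0.29 (SE 0.26).

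In upper glycolysis, which makes triose phosphates from glucose 6-phosphate, 6 of 7 estimates were negative. Aldoa, the main aldolase, gave 1139, 815 and 792 CPM under DMSO, against 632, 635 and 810.2 CPM after compound 33. DMSO replicate 1 was highest and compound 33 replicate 3 lay among the DMSO values. Its estimate was -0.40 (SE 0.23, edgeR adjusted p = 0.799), and -0.21 without DMSO replicate 1. Gpi1, the isomerase that forms fructose 6-phosphate, gave 386, 286 and 287 CPM, against 233, 269 and 275 CPM after compound 33. Its groups did not overlap, by a small gap, and the estimate was -0.30 (SE 0.21, edgeR adjusted p = 0.851), or -0.14 without DMSO replicate 1.

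Phosphofructokinase commits sugar to glycolysis, and its 3 genes had estimates of -0.18 (Pfkl), -0.25 (Pfkp) and 0.17 (Pfkm). The triose isomerase Tpi1 and the second aldolase Aldoc had -0.30 and -0.10. Pfkfb3 makes fructose 2,6-bisphosphate, the activator of phosphofructokinase. It gave 94.9, 101 and 87.7 CPM under DMSO, against 53.8, 72.6 and 77.7 CPM after compound 33, groups that did not overlap. The estimate was -0.47 (SE 0.22, edgeR adjusted p = 0.720). Its relative Pfkfb4 and the phosphatase Tigar, which removes the activator, were positive at 0.25 and 0.25, with SEs of 0.39 and 0.34.

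In lower glycolysis, which harvests ATP and ends at pyruvate, all 6 estimates were negative, with a median of -0.66. Pgam1, phosphoglycerate mutase, had the smallest p of the 39 members. It gave 330.4, 201 and 244 CPM under DMSO, against 156, 114 and 176 CPM after compound 33. Every compound 33 library was below every DMSO library. The estimate was 1.74-fold lower, -0.80 in log2 (SE 0.24, interval -1.33 to -0.27), with an unadjusted p of 0.00600 and an edgeR adjusted p of 0.508. It lay between -0.94 (DMSO replicate 2 left out) and -0.58 (DMSO replicate 1 left out), and the unadjusted edgeR p stayed under 0.05 whichever of the 6 libraries was left out. On mm10 Pgam1 is on chromosome 19 at 41911923 to 41918660, plus strand.

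Pgk1, phosphoglycerate kinase, catalyses the first ATP-yielding step and had the most negative estimate of the members. It gave 469.8, 98.3 and 212 CPM under DMSO, against 58.7, 163 and 78.8 CPM after compound 33. The groups overlapped and replicates scattered widely, with a coefficient of variation of 73.1% and 55.1%. The estimate of -1.37 (SE 0.60, edgeR adjusted p = 0.720) became -0.63 without DMSO replicate 1. It was -1.75 without DMSO replicate 2 and -1.91 without compound 33 replicate 2, each with an unadjusted edgeR p under 0.05 (0.00166 and 0.00673). Pgk1 is on chromosome X at 106187100 to 106203699, plus strand. Pkm, pyruvate kinase, was the most abundant member by CPM and gave 2465, 1378 and 1793 CPM under DMSO, against 1599.9, 1541 and 2081 CPM after compound 33, overlapping groups with an estimate of -0.11.

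Gapdh and Eno1, enzymes that most cells make in large amounts, had low counts here. Gapdh ranked 4452 and Eno1 6440 among the 10124 tested genes by level. Within the last 300 bases of their coding transcripts, 82.9% of the 50-base words of Gapdh also occur in other annotated genes (98 of them), and 87.9% of those of Eno1 occur in Eno1b. More than 50% of the 3′ end is shared in 2.19% of tested genes that could be searched, and among the members in these 2 alone. How the authors counted reads with several matches is unknown (not given in the sources used here), so the part of shared ends in these levels was not tested and both genes' values are uncertain.

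**Figure D2:**
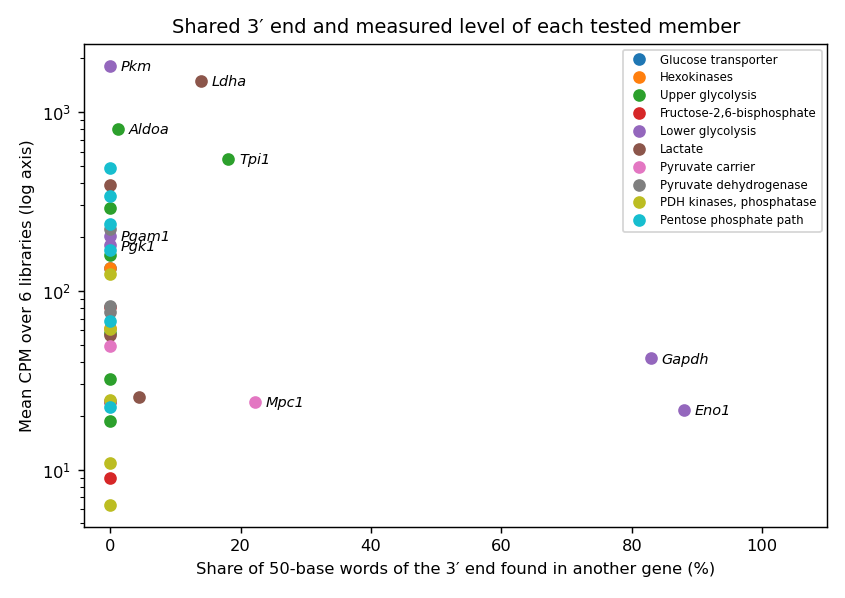
The horizontal axis gives the share of 50-base words in each tested member's 3′ end that also occur in another gene (percent), and the vertical log axis its mean CPM over 6 libraries, coloured by role. Gapdh (82.9%) and Eno1 (87.9%) stand apart from the other members, of which Mpc1 is next at 22.2%.

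Gapdh gave 37.1, 74.0 and 37.3 CPM under DMSO, against 41.0, 36.5 and 26.3 CPM after compound 33, overlapping groups with an estimate of -0.52 (SE 0.31), or -0.10 without DMSO replicate 2. Eno1 gave 18.6, 42.4 and 21.6 CPM, against 21.4, 15.8 and 9.78 CPM after compound 33. Its groups overlapped too, and the estimate of -0.83 (SE 0.37, unadjusted p 0.0440, edgeR adjusted p = 0.720) was -0.37 without DMSO replicate 2. The near-identical Eno1b is no member and was added after its values were seen. The summed level of Eno1 and Eno1b was 85.9, 99.7 and 70.7 CPM under DMSO, against 51.4, 53.9 and 42.7 CPM after compound 33, groups that did not overlap. Eno2, the neuronal enolase, had an estimate of -0.15. Without Gapdh and Eno1, 15 of 21 members between uptake and lactate were negative, with a median of -0.25.

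Ldha encodes the lactate dehydrogenase subunit that favours making lactate. It gave 2215, 1697 and 1417 CPM under DMSO, against 946, 1168 and 1493 CPM after compound 33. Compound 33 replicate 3 exceeded DMSO replicate 3, so the groups overlapped. The estimate was 1.48-fold lower, -0.56 in log2 (SE 0.25, interval -1.10 to -0.03), with an unadjusted p of 0.0414 and an edgeR adjusted p of 0.720. The unadjusted edgeR p was 0.131 without DMSO replicate 1, where the estimate was -0.37, and it was also above 0.05 without DMSO replicate 2, compound 33 replicate 1 or compound 33 replicate 2. Ldha is on chromosome 7 at 46841475 to 46855627, plus strand, and 13.9% of its 3′ end is shared with other genes.

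Ldhb, the subunit that favours using lactate, had an estimate of -0.39. The log2 ratio of Ldha to Ldhb reads, which library scaling does not affect, averaged 5.92 ± 0.10 under DMSO and 5.73 ± 0.40 after compound 33 (SD, n = 3). Slc16a3, the lactate exporter MCT4, gave 308, 365 and 464 CPM under DMSO, against 292, 386 and 526 CPM after compound 33, overlapping groups with an estimate of 0.08. Slc16a1, or MCT1, had -0.41. The log2 ratio of Slc16a3 to Slc16a1 was 2.67, 2.48 and 2.51 under DMSO, against 2.93, 2.63 and 3.50 after compound 33, a difference of 0.47, or 0.23 without compound 33 replicate 3. Over 6 such pairs of related genes the smallest p in an exact two-sided permutation test was 0.2 (0.6 after Benjamini-Hochberg adjustment), and the design cannot go below 0.1.

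**Figure D3:**
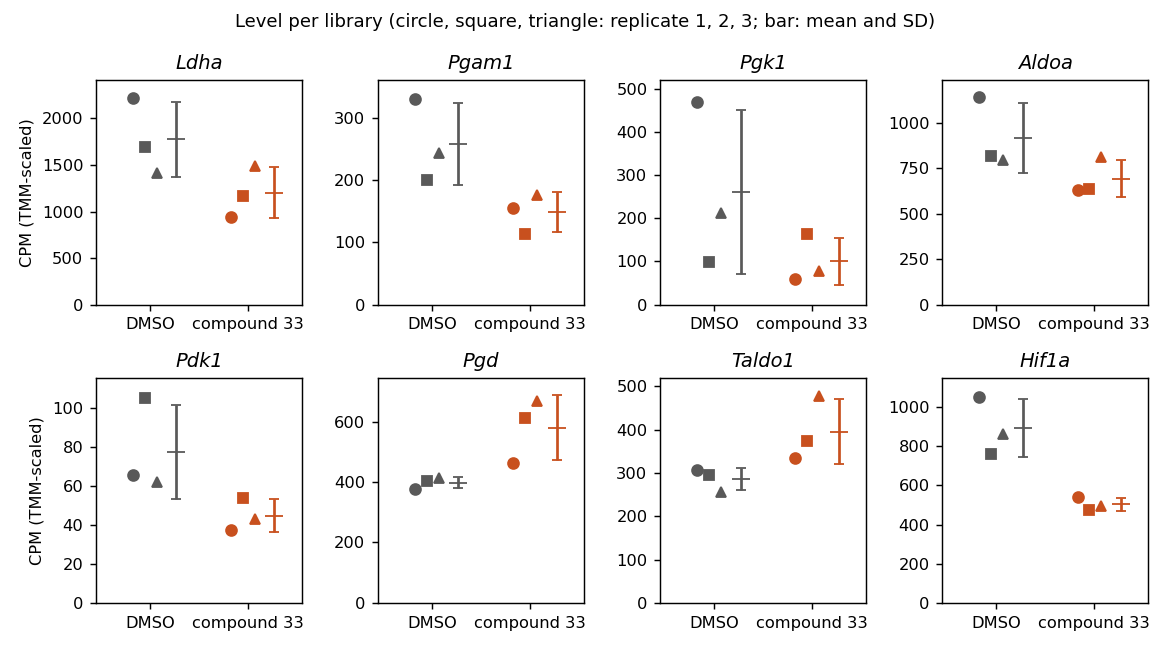
CPM in each library (vertical axes, from 0) for 7 members and Hif1a, DMSO in grey and compound 33 in orange, with the mean and SD beside the points. The groups are separate for Pgam1, Pdk1, Pgd, Taldo1 and Hif1a and overlap for Ldha, Pgk1 and Aldoa.

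At the entry of pyruvate into mitochondria 8 of 10 estimates were negative, with a median of -0.13. Pdk1, a kinase that switches pyruvate dehydrogenase off, gave 65.8, 106 and 62.0 CPM under DMSO, against 37.3, 53.9 and 43.2 CPM after compound 33. The groups did not overlap. The estimate was 1.73-fold lower, -0.79 in log2 (SE 0.26, interval -1.35 to -0.22), with an unadjusted p of 0.0100 and an edgeR adjusted p of 0.575. Without DMSO replicate 2 it was -0.50 (unadjusted edgeR p 0.0726). Pdk1 is on chromosome 2 at 71873224 to 71903858, plus strand, and its promoter windows held GCGTG but not ACGTG.

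The kinase with most reads, Pdk3, gave 102, 138 and 138 CPM under DMSO, against 105, 136 and 122 CPM after compound 33, overlapping groups with an estimate of -0.06. Pdk2 and Pdk4 were scarce, with estimates of 0.19 (SE 0.42) and -0.73 (SE 0.46), and the opposing phosphatase Pdp1 had -0.07. A difference between Pdk1 and the other kinases was not tested. Pdha1, the catalytic subunit of the dehydrogenase, gave 304, 195 and 193 CPM, against 163, 214 and 269 CPM after compound 33, overlapping groups with an estimate of -0.10, and its partners Pdhb and Dlat had -0.31 and -0.17. The carrier subunit Mpc2 gave 49.3, 66.3 and 48.0 CPM, against 45.9, 39.4 and 46.8 CPM after compound 33. Its groups did not overlap, by a narrow gap, with an estimate of -0.31 (edgeR adjusted p = 0.877), while Mpc1 had 0.08.

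In the pentose phosphate path Pgd and Taldo1 had the highest estimates of all members. Pgd, 6-phosphogluconate dehydrogenase, makes NADPH. It gave 376, 403 and 412 CPM under DMSO, against 463, 611 and 668 CPM after compound 33. Every compound 33 library was above every DMSO library. The estimate was 1.46-fold higher, 0.55 in log2 (SE 0.21, interval 0.09 to 1.00), with an unadjusted p of 0.0224 and an edgeR adjusted p of 0.674. Pgd is on chromosome 4 at 149149991 to 149166771, minus strand.

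Taldo1, transaldolase, moves carbon units between sugar phosphates and links the path back to glycolysis. It gave 307, 294 and 257 CPM under DMSO, against 334, 373 and 478 CPM after compound 33, again with no overlap. The estimate was 1.38-fold higher, 0.47 in log2 (SE 0.21, interval 0.01 to 0.92), with an unadjusted p of 0.0458 and an edgeR adjusted p of 0.720. The unadjusted edgeR p of both genes was above 0.05 without compound 33 replicate 2 or compound 33 replicate 3, and that of Taldo1 also without DMSO replicate 2 or DMSO replicate 3. Taldo1 is on chromosome 7 at 141392199 to 141402968, plus strand.

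Of the other pentose phosphate genes, transketolase (Tkt) gave 274, 136 and 244 CPM under DMSO, against 254, 328 and 181 CPM after compound 33, overlapping groups with an estimate of 0.22. The lactonase Pgls had 0.22, and the ribose-side enzymes Rpia and Rpe had 0.07 and 0.04. Both of the last turned negative without compound 33 replicate 3, at -0.03 and -0.06, leaving 4 of 6 positive. G6pdx, the dehydrogenase that opens the path, is no member and is named here after its values were seen. It gave 64.7, 119 and 79.7 CPM under DMSO, against 81.3, 94.9 and 88.5 CPM after compound 33, with an estimate of 0.01 (interval -0.52 to 0.54) that was -0.0051 when libraries were scaled by total reads alone.

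**Figure D4:**
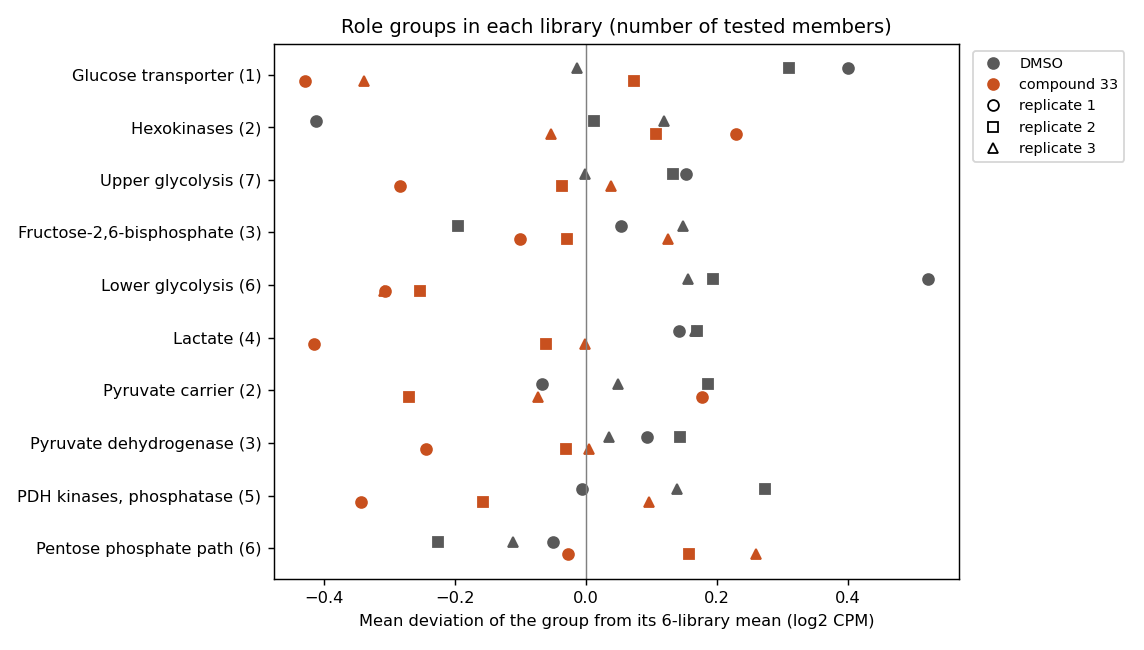
The horizontal axis gives the mean deviation of a role group from its own 6-library mean (log2 CPM), DMSO in grey and compound 33 in orange, with the number of tested members after each group's name. In lower glycolysis all DMSO libraries lie right of all compound 33 libraries, which does not hold without Gapdh and Eno1. The DMSO libraries also lie right for the lactate group and the pyruvate dehydrogenase subunits, whose single genes all overlap between treatments. In the pentose phosphate path they lie left of all compound 33 libraries.

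Library by library, lower glycolysis deviated from its mean by 0.52, 0.19 and 0.15 under DMSO and -0.31, -0.25 and -0.31 under compound 33 (log2 CPM). The pentose phosphate path deviated by -0.05, -0.23 and -0.11 under DMSO, against -0.03, 0.16 and 0.26 after compound 33, groups separated by a narrow gap. Lactate dehydrogenases and monocarboxylate transporters deviated by 0.14, 0.17 and 0.17 under DMSO, against -0.42, -0.06 and -0.0012 after compound 33. For the pyruvate dehydrogenase subunits the values were 0.09, 0.14 and 0.04, against -0.24, -0.03 and 0.0040. Neither of these averages overlapped, the subunits by a narrow gap, though treatments overlapped for every single gene in both. How often averages over so few genes separate among all genes was not tested. The separation in lower glycolysis rests on Gapdh and Eno1, whose counts are uncertain: the other 4 genes deviated by 0.83, -0.20 and 0.22 under DMSO, against -0.50, -0.27 and -0.08 after compound 33, and these overlapped. The genes between uptake and lactate together, Gapdh and Eno1 included, deviated by 0.20, 0.11 and 0.10 under DMSO. After compound 33 they deviated by -0.25, -0.08 and -0.07, so the groups did not overlap on this measure. The part of the uncertain Gapdh and Eno1 in this gap was not tested. The summed level of the genes between uptake and lactate, in which the abundant ones weigh most, did overlap. It was 8935, 6434 and 6640.4 CPM under DMSO, against 5131, 5645 and 6792 CPM after compound 33. DMSO replicate 1 held the highest level for 11 of the 23 tested genes between uptake and lactate, and compound 33 replicate 1 the lowest for 11. By single genes, 5 members had all compound 33 libraries below all DMSO libraries (Gpi1, Pfkfb3, Pgam1, Mpc2 and Pdk1), 12.8% against 6.73% of all genes. The reverse held for 2 (Pgd and Taldo1), 5.13% against 6.64%, which is near the background. The 4 members lower at an unadjusted p under 0.05 became 2 without DMSO replicate 2 and 6 without DMSO replicate 1. The 2 higher became 1 without DMSO replicate 2 or DMSO replicate 3, and 0 without compound 33 replicate 2 or compound 33 replicate 3.

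Hif1a encodes the oxygen-regulated subunit of hypoxia-inducible factor, which induces many glycolytic genes. It gave 1054, 758 and 864 CPM under DMSO, against 539, 476 and 493 CPM after compound 33, groups that did not overlap. The estimate was -0.83 (SE 0.21, interval -1.29 to -0.37, edgeR adjusted p = 0.401), and the authors' deposited table gives an adjusted p of 0.0514. Exons of Hif1a overlap other annotated genes on both strands, so its count is uncertain. Among 14 tested regulators of glucose metabolism 0 passed. Hif1a alone had an unadjusted edgeR p under 0.05, or 7.14% lower against 3.23% of all genes. The part of Hif1a in the members' values was not tested.

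Of 15 tested targets of the factor outside glycolysis 0 passed, with 3 lower and 2 higher at an unadjusted p under 0.05. The lower ones were the mitophagy receptor Bnip3 (-0.54), Fam162a (-0.50) and the Myc antagonist Mxi1 (-0.74), and the higher ones Ndrg1 (0.77) and the prolyl hydroxylase Egln3 (0.60). Bnip3 gave 408, 462 and 407 CPM under DMSO, against 282, 306 and 293 CPM after compound 33, and Egln3 37.6, 27.1 and 28.2 CPM, against 48.9, 48.5 and 43.2 CPM. Neither overlapped, and they lay in opposite directions. Ndrg1 was 0.42 without compound 33 replicate 2 (unadjusted edgeR p 0.273) and 1.12 without DMSO replicate 2, and Mxi1 ran from -1.13 without compound 33 replicate 1 to -0.53 without compound 33 replicate 2. For each of these 5 genes the unadjusted edgeR p rose above 0.05 on leaving out at least 1 single library, for Bnip3 compound 33 replicate 1 alone.

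Of 53 further genes of glucose, pyruvate and pentose phosphate metabolism 31 were tested and 0 passed, with a median estimate of -0.01. At an unadjusted edgeR p under 0.05, 2 were higher, 6.45% against 3.64% of all genes. On the same criterion 1 was lower, 3.23% against 3.23%, so the lower share was that of the background. Slc2a6, a lysosomal glucose transporter, gave 14.8, 24.4 and 19.1 CPM under DMSO, against 39.7, 34.0 and 39.1 CPM after compound 33, groups that did not overlap (estimate 0.94, SE 0.26, edgeR adjusted p = 0.435). Pdpr, a regulator of pyruvate dehydrogenase phosphatase, had 51 reads in all and an estimate of 1.94 (SE 0.55). Pgm3, an enzyme of amino sugar synthesis, was the lower one at -0.61 (SE 0.27).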

How the data were processed

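The authors deposited whole-number read counts per gene symbol, made with FastQC 0.11.9, HISAT2 2.2.1 and featureCounts 2.0.3 on mm10, per the submitters' processing notes. Annotation, strand setting and treatment of multiply matching reads: not given in the sources used here. Their deposited DESeq2 table holds the mean normalized signal, log2 fold change, Wald score and p-value of each gene. From the counts, edgeR 4.0.16 (R 4.3.3) kept 10124 genes (filterByExpr, minimum count 10), scaled by TMM and applied the robust quasi-likelihood F test to the 6 libraries, with treatment as sole factor and Benjamini-Hochberg adjustment over all genes kept; the threshold was 0.05. SE was taken as the estimate over the root of F. CPM were not divided by gene length, since 3′ libraries count transcripts. Alternatives were limma 3.58.1 (voom), DESeq2 1.42.0, other scalings and filters, a replicate block and each library left out.

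Members and lists were chosen with earlier results of these data known. Values by library are given for members with an unadjusted p under 0.05 or groups that do not overlap and for the most abundant of each role, and from other lists genes with an unadjusted p under 0.05 are named. Coordinates and shared 3′ ends are from GENCODE on mm10; Aldoa, with several entries, has no coordinates. Exons of Gapdh, Gpi1, Hk1, Mpc1, Pdha1, Pfkm, Pfkp, Rpe, Slc2a1, Tigar, Tpi1 and G6pdx overlap a gene on the opposite strand, and those of Pfkm, Pgls, Pkm and Tkt one on the same strand, which leaves their counts uncertain. Read ratios used a pseudocount of 0.5.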

Additional observations from a re-analysis of the deposited data

How the results depend on the processing

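No alternative passed a member; the smallest adjusted p of one was 0.240 (Pgam1, no low-count filter). The 3 genes that passed among all tested became 21 without a low-count filter, 18 in DESeq2 and 7 with the replicate block, and from leaving out single libraries 1 (DMSO replicate 3 or compound 33 replicate 1) to 7 (DMSO replicate 1). Same-numbered libraries correlated at -0.03, 0.21 and 0.08 in their deviations from group means, and differently numbered ones at -0.23 to 0.15. With 3 libraries per group these values cannot show whether the numbers pair the libraries. The replicate block left 1 member higher at an unadjusted p under 0.05 instead of 2. With each library left out in turn, members lower at that level numbered 2 to 6, members higher 0 to 2, and the members' median ran from -0.25 to -0.09. Leaving out Gapdh and Eno1, a choice made after seeing the data like the counts at an unadjusted p, gave a median of -0.11. The causes of these shifts were not tested. Signs held for 23 of 39 members in every alternative, and the 24 reversals each came from leaving out 1 library. The log2 fold changes that crossed 0 on leaving out a library ranged as follows: Aldoc -0.56 to 0.29, Eno2 -0.44 to 0.0054, G6pdx -0.16 to 0.29, Hk1 -0.044 to 0.20, Mpc1 -0.15 to 0.23, Pdha1 -0.28 to 0.15, Pdk2 -0.24 to 0.47, Pdk3 -0.19 to 0.026, Pdp1 -0.20 to 0.11, Pfkfb4 -0.040 to 0.55, Pfkm -0.024 to 0.36, Pfkp -0.42 to 0.011, Pkm -0.28 to 0.14, Rpe -0.097 to 0.15, Rpia -0.029 to 0.16, Slc16a3 -0.16 to 0.26, Tkt -0.020 to 0.42. That of G6pdx was also -0.0051 when scaled by total reads alone. Counting depth limits the scarce genes most, such as Pdk4 and Pfkfb4.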

Other observations

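Of 20 citrate cycle enzymes, all tested, 0 passed edgeR's test, with a median log2 fold change of -0.05. The single one with an unadjusted edgeR p under 0.05 was Sdhd, or 5.0% lower against 3.23% of all genes. Sdhd is a membrane anchor of succinate dehydrogenase. Its level was 129, 114 and 104 CPM in DMSO libraries and 78.9, 70.1 and 69.0 CPM in those with compound 33, with no overlap (log2 fold change -0.67, SE 0.21, edgeR adjusted p = 0.508).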
